A study of Mus musculus with 3 samples.

Results

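The BAF complex, the mammalian SWI/SNF remodeller, was examined through 9 of its subunit genes in RNA from the mouse dentate gyrus. They are Smarca4, Smarca2, Smarcc1, Smarcc2, Smarcb1, Arid1a, Arid1b, Actl6a and Actl6b, listed by name as subunits of the complex, and each has a row of its own among the 23934 symbols of the table. The study asked how activation of neurons alters open chromatin and RNA in this tissue. The 3 libraries used here, replicates 1, 2 and 3, form 1 group labelled E24, and each was made from the dentate gyrus of 1 C57BL/6 mouse aged 8 weeks. The sample labels state no genotype or treatment. The deposited table is titled with the abbreviations WT and ECT, and neither these nor E24 are explained in the labels. With 1 group there is no contrast between conditions. The data give levels of named rows, their spread between libraries and differences between subunit rows. This spread takes in the displacement of values between rows, described below, as well as differences between animals.

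BAF uses the energy of ATP to slide or evict nucleosomes and so sets which promoters and enhancers are accessible. It is assembled from interchangeable parts, with paralogous genes supplying alternative versions of the same position. When neural progenitors leave the cell cycle, the actin-related subunit Actl6a is exchanged for Actl6b, and the PHD finger and SS18 positions change as well. The resulting neuronal form of the complex is known for its part in dendrite growth and in memory, and mutations in several subunits cause human intellectual disability syndromes.

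The exchange pair is shown here by the 250 bases upstream of each RefSeq transcription start (GRCm38.p6, plus strand), because the rows of these genes differ most steadily among the subunit pairs below. Lower case marks the sequence and capitals mark CpG dinucleotides. The window of Actl6a is chr3:32708296-32708545 and that of Actl6b is chr5:137553296-137553545.
Actl6a: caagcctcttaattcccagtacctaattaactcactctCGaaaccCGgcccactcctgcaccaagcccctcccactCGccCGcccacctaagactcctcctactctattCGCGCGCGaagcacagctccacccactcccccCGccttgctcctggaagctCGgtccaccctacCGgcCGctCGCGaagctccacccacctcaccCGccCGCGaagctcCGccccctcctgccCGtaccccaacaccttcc
Actl6b: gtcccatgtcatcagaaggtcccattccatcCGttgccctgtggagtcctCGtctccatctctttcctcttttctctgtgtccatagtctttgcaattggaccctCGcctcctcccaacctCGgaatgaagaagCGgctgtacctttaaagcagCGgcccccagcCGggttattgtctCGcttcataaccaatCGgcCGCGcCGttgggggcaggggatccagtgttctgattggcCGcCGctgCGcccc
These windows hold 19 CpG in Actl6a and 15 in Actl6b. Over the 10 windows of the 9 genes (Arid1a has a further start) the number runs from 15 to 40, against a median of 6 over 32851 RefSeq windows of the same length, 27.3% of which hold 15 or more. The AP-1 motif TGANTCA, searched on both strands, is present in 1 of the 10 windows, that of Smarcb1, and in 6.75% of all windows. The libraries measure RNA only, and no reading of these promoters was made from them.

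Values are RPKM, reads per kilobase of gene and per sequencing depth, so that rows of different genes can be set side by side. One property of the table bears on every value. Values stand in different rows in different libraries: among rows at 5 RPKM or more, replicate 2 matched replicate 1 in the same row (to 0.1 in natural log) for 17.0%, replicate 3 matched replicate 1 for 16.8%, and replicate 3 matched replicate 2 for 41.4%. Rows 1 to 10 places away matched for 3.85%, 3.76% and 4.63% on average at each distance, against 2.41% to 2.47% at rows 26 to 100 places away. Within 25 rows of the BAF rows the same shares were 19.1% of 162, 17.9% of 162 and 35.98% of 164 rows. Each value below therefore belongs to a row that carries a gene's name, and agreement of the libraries does not show that the name is the right one. The same limit holds for rows named for markers of the tissue, and displacement was not tested in them. By the limma test used below, 18.9% of all symbols lay above 1 RPKM at an adjusted p under 0.05. Of 7 granule neuron markers 0 did, and 3 had an unadjusted p under 0.05, with the Prox1 row at 1.58, 39.3 and 0 RPKM. Of 6 general neuron markers 1 passed, Map2, and Syn1 was listed at 0 throughout. Of 8 markers of progenitors and dividing cells 1 passed, Hes5, and their rows summed to 35.2, 43.8 and 36.6 RPKM. For other cells 1 of 5 astrocyte, 3 of 4 microglial and 1 of 3 endothelial markers passed, with Csf1r and Flt1 listed at 0. What these cells contribute to the BAF rows was not tested.

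Of the 9 BAF rows, 8 lay above 1 RPKM and only that of Arid1a did not. The test was limma on log2(RPKM + 1), one-sided, with Benjamini-Hochberg adjustment over all 23934 symbols, of which 18.9% passed. The median of the 9 row means was 21.7 RPKM, against 3.52 RPKM over all rows. With a library left out, 6 members passed without replicate 1, 5 without replicate 2 and 4 without replicate 3, while the share of all symbols that passed was 20.8%, 12.8% and 11.2%. The 9 rows summed to 200.6, 232.6 and 243.2 RPKM in replicates 1, 2 and 3.

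**Figure D1:**
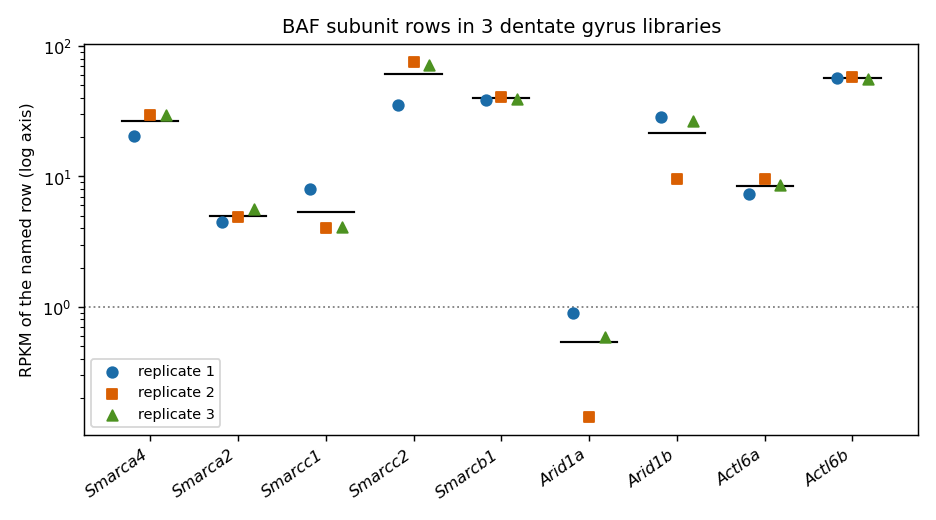
RPKM of each BAF subunit row on a log axis, with 1 symbol per library, a bar at the mean of the 3 libraries and a dotted line at 1 RPKM. The Actl6b and Smarcb1 points nearly coincide, those of Smarcc2 and Arid1b are spread, and all 3 Arid1a points lie under the line.

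The ATPases come first, since they supply the motor of the complex and only one of them is present in any one assembly. The row of Smarca4, also called Brg1 (chromosome 9, 21420612 to 21508674, mm9), held 20.4, 29.5 and 29.7 RPKM. Replicate 1 was lowest, and the row lay above 85.3% to 90.1% of the rows of its own library. The row of Smarca2, also called Brm (chromosome 19, 26679649 to 26852811), held 4.51, 4.86 and 5.61 RPKM, above 63.8% to 66.4% of rows. Both rows passed the test, Smarca4 at 3.76 ± 0.17 (SE) above the level in log2(RPKM + 1) (limma adjusted p = 0.00226) and Smarca2 at 1.58 ± 0.25 (SE; limma adjusted p = 0.0278). The Smarca2 call was lost without replicate 2 (limma adjusted p = 0.143) and without replicate 3 (0.192).

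The Smarca4 row exceeded the Smarca2 row in each library, by 4.53, 6.08 and 5.29 times in RPKM. On the log2(RPKM + 1) scale the difference was 2.19 ± 0.21 (SD, n = 3), higher in 3 of 3 libraries, and the exact two-sided sign-flip permutation test gave p = 0.25, the smallest p that 3 libraries allow. The ranges of the 2 rows did not overlap. With the highest value within 5 rows of each row in place of the row itself, the differences were 1.75, -0.67 and 0.21, so that the direction was not shared by the libraries.

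The scaffold subunits Smarcc1 and Smarcc2 pair with each other to form the base on which the complex is built. The row of Smarcc2 (chromosome 10, 127896291 to 127927230) had the highest mean of the 9 rows and held 35.4, 76.1 and 72.2 RPKM. Replicate 1 was under the other two by more than a factor of 2, at 0.478 times their mean. The row of Smarcc1 (chromosome 9, 110034527 to 110142682) held 8.03, 4.0 and 4.10 RPKM, and there replicate 1 was the high one, at 1.98 times the mean of the others. In both rows replicates 2 and 3 lay within 1.1 times of each other, as did 5 of the 9 BAF rows and 29.9% of all rows at 1 RPKM or more in either of those libraries.

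Smarcc2 exceeded Smarcc1 by 4.41, 19.02 and 17.6 times in replicates 1, 2 and 3. The difference of 3.27 ± 1.09 in log2(RPKM + 1) (SD, n = 3) was positive in 3 of 3 libraries, with p = 0.25 by the exact sign-flip permutation test. The size of this difference is set by which library is read, since replicate 1 gave 2.01 and the others 3.95 and 3.84. Both rows passed the level test, Smarcc2 with a limma adjusted p of 0.0042 and Smarcc1 with 0.0476, and the Smarcc1 call was lost when any 1 library was left out (limma adjusted p from 0.0805 to 0.169). The Smarcc1 row has a very high neighbour, the microRNA row Mir6236 placed 2 rows before it, with 2030, 863 and 2131 RPKM. With highest values within 5 rows the order of the scaffold pair turned over, to -4.61 ± 1.02. The Mir6236 row held the highest value near Smarcc1 in each library. The next highest were 50.4 and 40.2 RPKM in replicates 1 and 2, in the row Ptpn23, and 40.5 RPKM in replicate 3, in the row Cspg5. The highest values near Smarcc2 were 44.5, 76.1 and 72.2 RPKM. In replicates 2 and 3 the turned order thus rests on the Mir6236 row, and the difference without it was not computed.

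Smarcb1, a core subunit that contacts the nucleosome and is lost in rhabdoid tumours, had one of the steadiest rows. It held 38.7, 40.9 and 39.7 RPKM (chromosome 10, 75359513 to 75384359), a mean of 39.8 ± 1.08 (SD, n = 3), and the highest library was 1.06 times the lowest. The row lay above 92.2% to 92.9% of rows in its library and 4.35 above the tested level with an SE of 0.09 (limma adjusted p = 0.00141). The rows around it were not steady. The row for the matrix protease Mmp11, 3 rows before it, held 319, 0.515 and 0.291 RPKM, and that for the mitochondrial protein Chchd10, 2 rows before it, held 0.698, 77.7 and 74.2 RPKM. None of its 10 nearest neighbours agreed between the libraries in the sense defined below, although 5 of them reached 1 RPKM in at least 1 library.

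The ARID subunits define the canonical BAF complex, bind DNA and exclude each other from an assembly. The row of Arid1a (chromosome 4, 133234922 to 133309526) was the lowest of the 9, with 0.893, 0.143 and 0.583 RPKM. All 3 libraries were under 1 RPKM, and the row did not pass (limma adjusted p = 1). The row of Arid1b (chromosome 17, 4995073 to 5347656) held 28.7, 9.52 and 26.7 RPKM. Replicate 2 was about 3 times lower than the others there, and the call above 1 RPKM (limma adjusted p = 0.017) was lost without replicate 1 (0.0962) and without replicate 3 (0.101).

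By row, Arid1b exceeded Arid1a by 32.2, 66.7 and 45.8 times. Arid1a minus Arid1b was -3.77 ± 0.50 in log2(RPKM + 1) (SD, n = 3), negative in 3 of 3 libraries, with an exact sign-flip permutation p of 0.25. The neighbourhood of the Arid1a row differed sharply from the row. Within 5 rows of it the highest values were 163, 137 and 149 RPKM, in the row Clhc1 for replicate 1 and in the row of the microtubule regulator Stmn1 for replicates 2 and 3. Near the Arid1b row the highest values were 53.6, 44.6 and 46.2 RPKM, all in the row directly before it, that of the repair and transcription factor subunit Gtf2h5. With these highest values the ARID pair reversed, to 1.62 ± 0.05. A low level of the Arid1a transcript is therefore not stated from its row.

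The actin-related subunits Actl6a and Actl6b mark progenitor and neuronal forms of the complex. The row of Actl6b (chromosome 5, 137994782 to 138010801) held 56.6, 58.1 and 56.1 RPKM, a mean of 56.9 ± 1.03 (SD, n = 3). It had the smallest relative spread of the 9 rows, its highest library being 1.04 times its lowest, and stood above 94.8% to 95.1% of rows. The row of Actl6a (chromosome 3, 32607467 to 32625893) held 7.29, 9.58 and 8.63 RPKM, a mean of 8.50 ± 1.15, above 70.3% to 74.2% of rows. Both passed the level test, with limma adjusted p of 0.00141 for Actl6b and 0.00612 for Actl6a, the latter lost without replicate 2 (0.0591) and without replicate 3 (0.0688).

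The neuronal row exceeded the progenitor row by 7.76, 6.06 and 6.50 times, and held 88.6%, 85.8% and 86.7% of their summed RPKM. The difference was 2.61 ± 0.16 in log2(RPKM + 1) (SD, n = 3), higher in 3 of 3 libraries and with the smallest SD of the 4 pairs. Its exact sign-flip permutation p was 0.25, the lowest possible. With the highest values within 5 rows the difference was 0.94 ± 0.16, positive in 3 of 3 libraries. Those values all stood in neighbouring rows, Gigyf1 and Gnb2 near Actl6b and Ndufb5 near Actl6a. That difference therefore does not test the order of the Actl6b and Actl6a rows. In bulk tissue, a change in the number of cells and a change in RNA per cell cannot be told apart. The ratio is that of the named rows and is not assigned to the genes or to the neurons of the tissue.

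**Figure D2:**
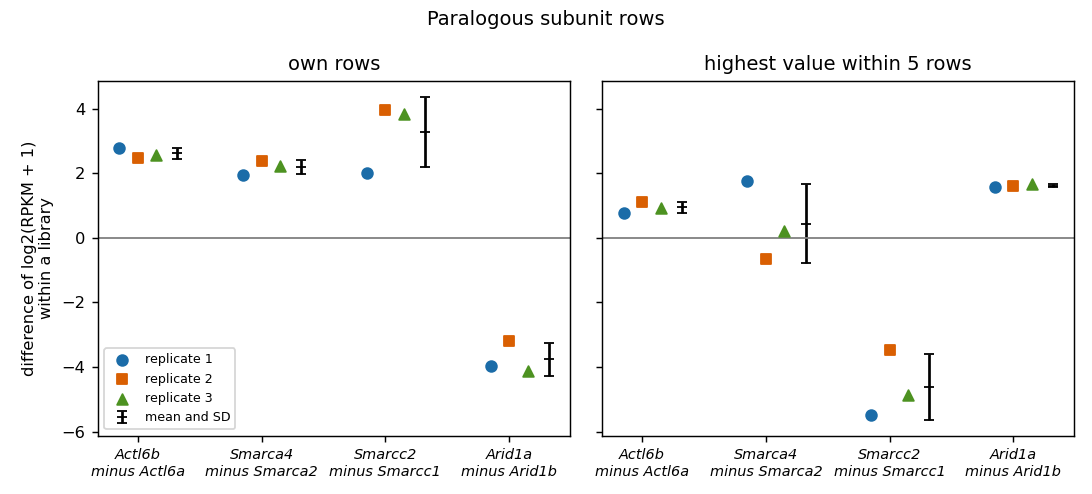
Within-library differences of log2(RPKM + 1) for the 4 paralogous pairs, 1 symbol per library with the mean and SD beside them, from the named rows (left) and from the highest value within 5 rows of each (right). All own-row differences share a sign within a pair, and the scaffold and ARID pairs change sign on the right.

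Agreement of the 3 libraries separates the 9 rows into steady and unsteady ones. A row was counted as agreeing when all libraries held 1 RPKM or more and the highest was at most 1.5 times the lowest. This was met by 5 of 9 members, Actl6b, Smarcb1, Smarca2, Actl6a and Smarca4, with ratios of 1.04, 1.06, 1.245, 1.31 and 1.45. Of all 16384 rows at 1 RPKM or more in some library, 19.8% agreed. The others were Smarcc1 at 2.01, Smarcc2 at 2.15, Arid1b at 3.02 and Arid1a at 6.26. Arid1a was under 1 RPKM in every library, so it is among the 9 members but not among the 16384 rows. Within 1.1 times, 2 of 9 rows agreed, Actl6b and Smarcb1, against 4.47% of those 16384 rows. Among rows at 1 RPKM or more in all 3 libraries the median ratio was 1.38 for the 8 members and 1.88 for all 7913 such rows.

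**Figure D3:**
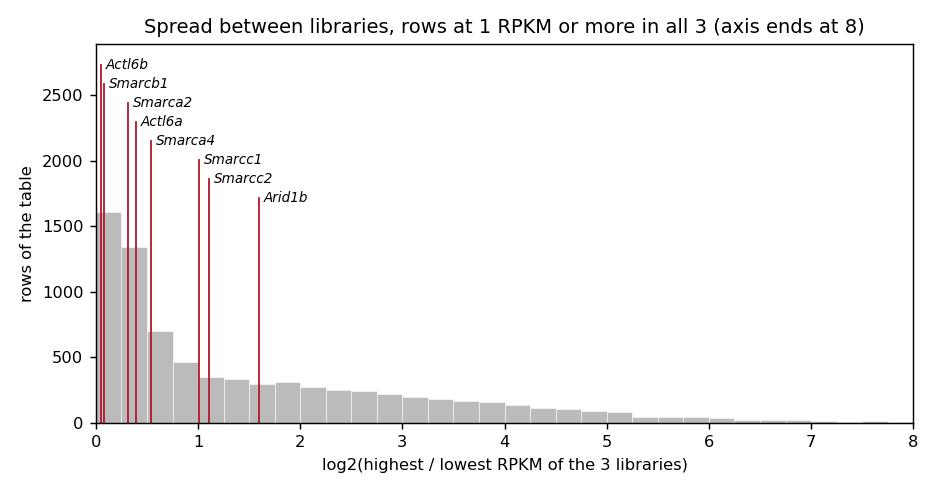
Histogram of the log2 ratio of highest to lowest RPKM for the 7913 rows at 1 RPKM or more in all 3 libraries, with red lines, whose heights carry no value, at the 8 BAF rows among them. The Actl6b and Smarcb1 lines stand in the first bin and Arid1b is the farthest to the right.

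The rows within 5 places of each member give a further reading, since a value moved by that distance stays in view. The highest values there agreed within 1.5 times for 4 of 9 members, Arid1a, Arid1b, Actl6a and Actl6b, while 58.6% of windows around all rows did. The count for BAF windows is thus no higher than the background. Without replicate 1, 7 of 9 agreed, against 75.9% of all windows. Around Actl6b the highest value was 158 and 159 RPKM in replicates 1 and 2, both in the row Gigyf1 at 3 places before it, and 147 RPKM in replicate 3, in the row of the G protein subunit Gnb2 at 2 places before it. Around Actl6a it was 91.4, 73.1 and 76.7 RPKM, each in the row of the respiratory chain subunit Ndufb5 at 3 places after it. Around Smarca4 it was 78.9 RPKM in replicate 1, in a row whose symbol is a date in the table, and the Smarca4 row itself was highest in replicates 2 and 3. Around Smarca2 the highest values were 22.7 and 25.5 RPKM in replicates 1 and 3, in the row Ermp1, and 47.6 RPKM in replicate 2, in the row Plgrkt. Around Smarcc2, counting rows of its own chromosome only, the row Neurod4 led replicate 1 with 44.5 RPKM and the Smarcc2 row led the others.

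Sets of 3 values, 1 per library, that lay within 1.1 times of each other were found within 5 rows of 8 of 9 members, all but Smarca2. Since 69.8% of all windows hold such a set, its presence says little about a member. For Actl6b and Smarcb1 the nearest set was the row itself in all 3 libraries, which follows from their own values lying within 1.1 times. For Actl6a it was made of 9.79, 9.58 and 10.2 RPKM, from the row before, the row itself and the row 4 places after. For Smarcc1 it was 9.10, 9.67 and 9.11 RPKM, from rows 1 after, 3 before and 1 before it. The nearest set to Arid1a was 2.26, 2.27 and 2.27 RPKM, from 3 and 4 rows before. For Smarca4, Smarcc2 and Arid1b the nearest set left out the named row in every library. These sets describe the table and assign no value to a gene.

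**Figure D4:**
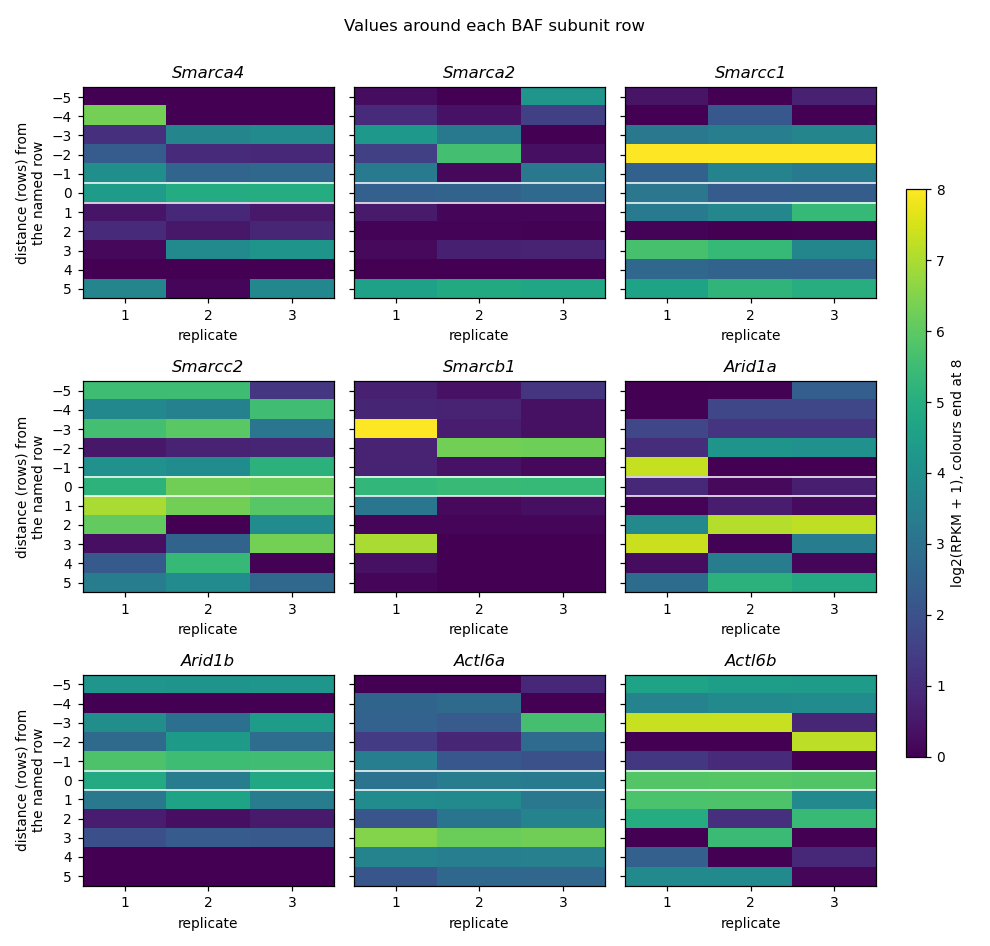
Each panel shows log2(RPKM + 1) as colour for the row named for a BAF subunit (distance 0, between white lines) and the 5 rows before and after it, in replicates 1, 2 and 3. The Actl6b and Smarcb1 rows have one colour across the libraries, while bright cells near Arid1a and Smarcb1 sit in different rows in different libraries.

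The order of names around the members was also not that of the genome. The Smarca4 row stood among rows whose median start is 5.98 Mb away on chromosome 9, the Smarca2 row 2.75 Mb away and the Arid1b row 0.966 Mb away. Of the 10 rows around Smarcc2, 2 were on chromosome 10. The rows of Actl6b and Smarcb1 were 0.0434 and 0.0462 Mb from the median of their neighbours, the shortest distances of the 9.

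The rest of the complex was read from a list of 22 other BAF and PBAF subunits. Of these rows 10 lay above 1 RPKM by limma, against 18.9% of all symbols. Agreement within 1.5 times was met by 6, against 19.8% of all rows at 1 RPKM or more in some library. Some of the 22, such as Smarce1 and Phf10, reached 1 RPKM in no library and are outside that share. The median of their row means was 8.79 RPKM. The beta-actin row Actb, a subunit of the complex as well as of the cytoskeleton, held 616, 731 and 745 RPKM. Of the interchangeable Smarcd subunits, Smarcd1 held 32.2, 48.5 and 45.0 RPKM and passed. Its paralogue Smarcd3 held 131, 3.77 and 27.2 RPKM, and Smarcd2 held 9.55, 0 and 2.18 RPKM, and neither passed. The row of Smarce1, an HMG-box subunit, held 0.104, 0.0425 and 0 RPKM.

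Among the transcription factor and accessory subunits, Bcl11a held 21.4, 31.1 and 32.6 RPKM and passed. Its paralogue Bcl11b, which is needed for granule neuron development, held 0.211, 26.4 and 39.4 RPKM and did not pass (limma adjusted p = 0.26), but did without replicate 1 (0.0214). Bcl7b passed with 24.4, 24.4 and 21.96 RPKM, while Bcl7a held 1.57, 32.5 and 32.8 RPKM and passed only when replicate 1 was left out (limma adjusted p = 0.0049). The PBAF bromodomain subunit Pbrm1 held 5.17, 7.59 and 7.51 RPKM. Subunits of the non-canonical complex, Gltscr1 and Gltscr1l, held 3.88, 4.70 and 4.12 RPKM and 8.76, 12.0 and 11.7 RPKM, and both passed. The Gltscr1 call was lost when any 1 library was left out (limma adjusted p of 0.0683, 0.228 and 0.236), that of Gltscr1l without replicate 3 (0.0549), that of Pbrm1 without replicate 2 (0.103) and without replicate 3 (0.118), and that of Actb without replicate 2 (0.0502). The rows of Smarcd1, Bcl11a, Bcl7b and Dpf2 passed whichever library was left out, and that of Brd7, at 23.8, 17.9 and 0 RPKM, passed only without replicate 3 (limma adjusted p = 0.0327).

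At the other positions exchanged between progenitors and neurons, the rows did not all stand like Actl6b over Actl6a. The neuronal SS18-type subunit Ss18l1, a calcium-responsive coactivator also called Crest, held 9.05, 14.1 and 14.8 RPKM and passed (limma adjusted p = 0.00606), but not without replicate 2 (0.056) or without replicate 3 (0.0582). Its progenitor counterpart Ss18 held 0.0153, 2.33 and 0.00815 RPKM. Of the PHD finger subunits, the neuronal Dpf3 held 4.69, 7.01 and 7.93 RPKM and passed, a call lost without replicate 2 (limma adjusted p = 0.119) and without replicate 3 (0.139), and the neuronal Dpf1 held 0.52, 0 and 0 RPKM. Dpf2, which is broadly expressed, held 17.3, 19.2 and 20.4 RPKM, and the progenitor subunit Phf10 was listed at 0 in all 3 libraries. Highest values within 5 rows were 43.1, 53.8 and 52.7 RPKM near Dpf1 and 40.6, 47.8 and 46.2 RPKM near Ss18, far above those rows. Near Phf10 they were 0.172, 0.175 and 3.02 RPKM, so that its neighbourhood was low as well.

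**Figure D5:**
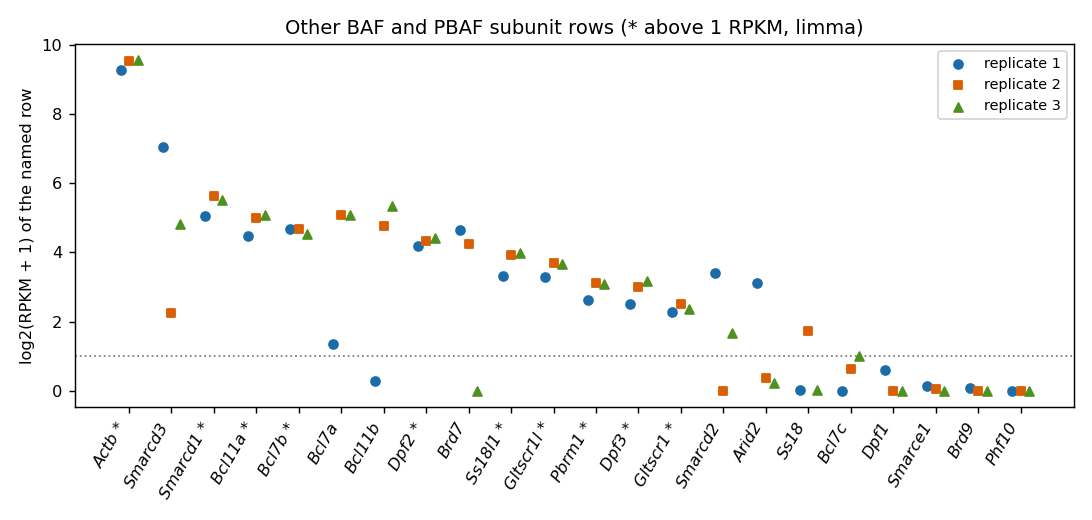
log2(RPKM + 1) of the rows of 22 other BAF and PBAF subunits, ordered by mean RPKM, with 1 symbol per library, a dotted line at 1 RPKM and an asterisk for rows above it by limma. Rows such as Smarcd3, Bcl7a, Bcl11b and Brd7 have 1 library far from the others.

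Replicate 1 was the low library in many of these rows where replicates 2 and 3 were close. In other rows of the list, such as Smarcd2, Smarcd3 and Brd7, replicate 1 was the highest. Of the 8 other subunit rows whose replicates 2 and 3 lay within 1.1 times, replicate 1 was more than 10% below the lower of them in 7, all but Dpf2, with a median of 0.687 times their mean. Over the table the same held for 46.0% of 4343 such rows, with a median of 0.927. Among the 5 BAF rows of this kind it held for 2, Smarca4 at 0.69 and Smarcc2 at 0.478, while Smarcb1 stood at 0.962, Actl6b at 0.992 and Smarcc1 at 1.98. Whether displacement of values has a part in this was not tested.

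Among 8 other remodelling ATPases in the table, 1 row passed the limma test against 1 RPKM (adjusted p under 0.05), against 18.9% of all symbols. Of the 8 rows, 4 held 1 RPKM or more in all 3 libraries, as did 7913 of all 24458 rows. The row that passed was that of Smarca5, the ISWI motor, at 10.5, 12.6 and 12.8 RPKM. The 3 highest by mean were Chd4, Smarca5 and Smarca1. The Chd4 row held 316, 16.1 and 37.5 RPKM, while the highest values within 5 rows of it were 316, 318 and 305 RPKM. It did not pass (limma adjusted p = 0.0534). With a pseudocount of 0.1 (limma adjusted p = 0.0354) or 0.01 (0.0316), or a filter at a mean of 0.1 RPKM (0.0335), it did. The row of Smarca1 held 13.6, 1.41 and 7.66 RPKM. The difference in counts between these ATPases and the BAF rows was not tested.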

How the data were processed

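RNA of 3 dentate gyrus libraries was sequenced. Per the submitters' processing notes, reads were processed with TopHat2 and Cufflinks on mm9, and the authors deposited RPKM per gene row; their versions, the annotation and any filtering were not given in the sources used here. Depth is unknown, which leaves counting error unstated. The table holds 24458 rows. A further 9 value columns belong to none of the samples used here and were left out. Coordinates are those of the table.

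Rows sharing a symbol were summed for limma 3.58.1 in R 4.3.3 (intercept-only, variance trend, pseudocount 1, all 23934 symbols). The fit was tested on simulated data with independent noise and no displacement between rows, so that simulation does not cover displaced values. Row and window measures, with the paralogue differences, came from the rows as deposited. Separate animals are stated by the labels' protocols. Members, lists and rules were chosen with earlier results of these data known; all 9 members are named, and of the other subunits those above 1 RPKM, those at 0 and the exchange subunits, with further rows named after their values were seen. Promoters are from RefSeq (GRCm38.p6), matched by symbol for 9 of 9 members. Alternatives changed the pseudocount, level, filter, trend, scaling, agreement ratio, window and libraries. Of the marker lists, 1 is not reported here.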

Additional observations from a re-analysis of the deposited data

How the results depend on the processing

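With a library left out, the number of BAF rows above 1 RPKM was 4 to 6 in place of 8, with 11.2% to 20.8% of all symbols. That of agreeing rows was 5 to 7 in place of 5. The share of rows reaching 1 RPKM in some library that agreed rose as well, from 19.8% to between 30.9% and 44.9%. That of agreeing windows was 4 to 7 in place of 4, while the share of all windows rose from 58.6% to between 65.8% and 75.9%. Against 5 RPKM, 4 rows passed, with 8.56% of all symbols, the Smarca2 row then lying at -0.0062 and the Gltscr1 row at -0.20 of the log2 level. The tighter of the other agreement ratios left 3 of 9 rows, with 12.8% of rows reaching 1 RPKM in some library. With the highest value within 5 rows, Smarcc2 minus Smarcc1 became -4.61, Mir6236 being the highest row near Smarcc1. Arid1a minus Arid1b became 1.62 with that setting. Apart from settings that drop a library or change what is tested, the cause was not tested. The 42 other alternatives for these counts and pair differences kept the direction, or stayed within 1.5 times the count. For Actl6b minus Actl6a with the highest value within 5 rows, the direction kept was that of neighbouring rows. Windows over any chromosome were added after seeing the data. No paired analysis was possible because only 1 group was sampled. What depth limits could not be stated.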
